A study of Mus musculus with 60 samples.

Results

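The genes described here are 10 targets of the transcription factor p53 and of the DNA damage response, namely Cdkn1a, Mdm2, Ccng1, Bbc3, Trp53inp1, Phlda3, Bax, Gdf15, Sesn2 and Eda2r. The list was drawn up by name, as targets p53 is known for. Of the 10, 8 had a probe set that the platform's annotation ties to 1 gene symbol, and Bax and Gdf15, without such a probe set in the annotation used, were not analysed here. The 8 measured genes had 15 probe sets, 1 each for Bbc3, Phlda3 and Eda2r, 2 each for Cdkn1a, Trp53inp1 and Sesn2, and 3 each for Mdm2 and Ccng1. Each gene was represented by the probe set with the highest mean over the 60 arrays, called its main probe set, among 18193 genes tested in all.

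p53 is held at a low level in unstressed cells because the ubiquitin ligase Mdm2 marks it for degradation. When DNA is damaged, kinases modify p53, it escapes Mdm2, and it raises the transcription of genes that halt the cell cycle, start apoptosis, adjust metabolism and feed back on p53 itself. In lung, iron particles are of interest in this respect because iron can drive reactions that oxidize DNA. Several of the targets, among them Cdkn1a and Sesn2, also respond to other stresses without p53.

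The samples were right diaphragmatic lung lobes of male Balb/c mice that carried no engineered allele. Mice had inhaled superparamagnetic iron oxide nanoparticles (SPIO) by nose for 4 h, and sham controls (CON) had been held in the same restraint tubes and breathed particle-free humidified helium, oxygen and filtered air. Lungs were taken at 0, 6, 24, 48, 96 and 168 h after exposure from 5 mice per group, 12 groups in all, with 1 array per mouse. No age is stated for the mice. Mice taken at 96 h had also been in plethysmographs, and those taken at 168 h in metabolism cages on a liquid diet, in both arms, so that time and handling cannot be told apart at those times. Each lobe was homogenized whole, and fewer cells of a type and less RNA per cell cannot be told apart in such samples.

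The arrays bore out the labelled tissue, with the surfactant gene Sftpc between 14.85 and 15.01 on the log2 scale in all 60 arrays. A pair of arrays stood apart from their labels. Array 1 of the CON 0 h group had an Xist value of 11.94, against 5.16 to 6.02 on the other 59 arrays, and an albumin (Alb) value of 14.02, against 5.27 to 11.35. Array 3 of the SPIO 24 h group had a mean of 5.60 over 3 Y-linked genes, against 6.77 to 7.97 on the others. Calls that change without these 2 arrays are given both ways.

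The values of transcript end controls also differed between the arms. The arrays carry control probe sets at the 3′ and at the 5′ end of the beta-actin and Gapdh transcripts, and the 3′ value minus the 5′ value grows when RNA is shortened or copied incompletely. For beta-actin this difference was larger in SPIO than in CON lungs at all 6 times, by 0.05 to 0.31 on the log2 scale, and the two-sided exact permutation test passed at 4 of the 6 times (adjusted p = 0.019 at 6, 48, 96 and 168 h, over 12 tests). For Gapdh it was larger at all 6 times by 0.05 to 0.28 and passed at 6 h and 168 h. The largest value belonged to array 3 of the SPIO 96 h group, with 1.16 as the mean of both controls. They are set beside each result that moved with them, and what produced them was not tested.

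The sequence that p53 binds is made of half-sites of 10 bases, and promoter windows of 300 bases, from 250 before to 50 after an annotated start, were searched for 1 exact half-site on both strands. RefSeq's table on build GRCm38.p6 gave 13 such windows for 9 of the 10 genes, and none for Trp53inp1. Of the measured genes, Cdkn1a (at the more upstream of its 2 annotated starts), Mdm2 and Ccng1 held a half-site, and 8.36% of all 32851 windows did. The windows of Phlda3, Bbc3, Sesn2 and Eda2r held none. Cdkn1a, Mdm2 and Ccng1 are shown as the members with such a match. Sesn2 is shown because it was the only member whose main probe set was called at single times, with its match to TGACNNNGC, the core of the antioxidant response element. That core was searched on both strands, 12.4% of windows held it, and so did those of Eda2r and of the other Cdkn1a start. The matches are in capitals.
Cdkn1a, + strand, chr17:29090896-29090925: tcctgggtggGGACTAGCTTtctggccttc
Cdkn1a, + strand, chr17:29090918-29090947: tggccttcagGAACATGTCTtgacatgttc
Mdm2, − strand, chr10:117710925-117710954: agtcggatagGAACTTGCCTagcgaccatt
Ccng1, − strand, chr11:40755452-40755481: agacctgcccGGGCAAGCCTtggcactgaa
Sesn2, − strand, chr4:132510473-132510502: cgcagcgggcTGACAGAGCcgggcgagcgc
A match is a description of letters in the window, and binding was not measured.

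By their main probe sets, Sesn2 was the only one of the 8 measured members called at single times. With limma and Benjamini-Hochberg adjustment over all 18193 genes, 1 of the 8 genes was called at 24 h and 1 at 96 h, in both cases Sesn2, lower in SPIO lungs, and 0 were called at the other 4 times. Of all genes tested, 23.9% were called at 24 h (3.66% lower) and 1.41% at 96 h (0.885% lower), against 3.67%, 1.17%, 12.5% and 2.19% at 0, 6, 48 and 168 h. The 1 member of 8 at 24 h did not exceed the share of all genes. At an unadjusted p under 0.05 the counts of members in order of time were 1, 1, 2, 0, 2 and 1, and by the methods' test (unequal-variance analysis of variance followed by Tukey's test) they were 0 at each time except 96 h, where Sesn2 passed. Over all genes the unadjusted shares were 17.7%, 11.9%, 35.2%, 26.5%, 14.3% and 16.8%, and those of the methods' test 2.79%, 1.55%, 11.6%, 6.91%, 1.72% and 2.07%. The median difference of the 8 genes ran from -0.17 at 0 h to 0.05 at 6 h, beside medians of 0.01 to 0.09 over all genes. The choice of scaling matters at 24 and 48 h, where centring each array on its median moved all SPIO against CON differences down by 0.18 and 0.13. From 0 to 96 h the share of called genes that were higher in SPIO was 69.7%, 65.1%, 84.7%, 85.0% and 37.1%, and on such arrays 51.2%, 39.2%, 28.0%, 33.5% and 11.1%. Sesn2 was lower at all 6 times on both scales.

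**Figure D1:**
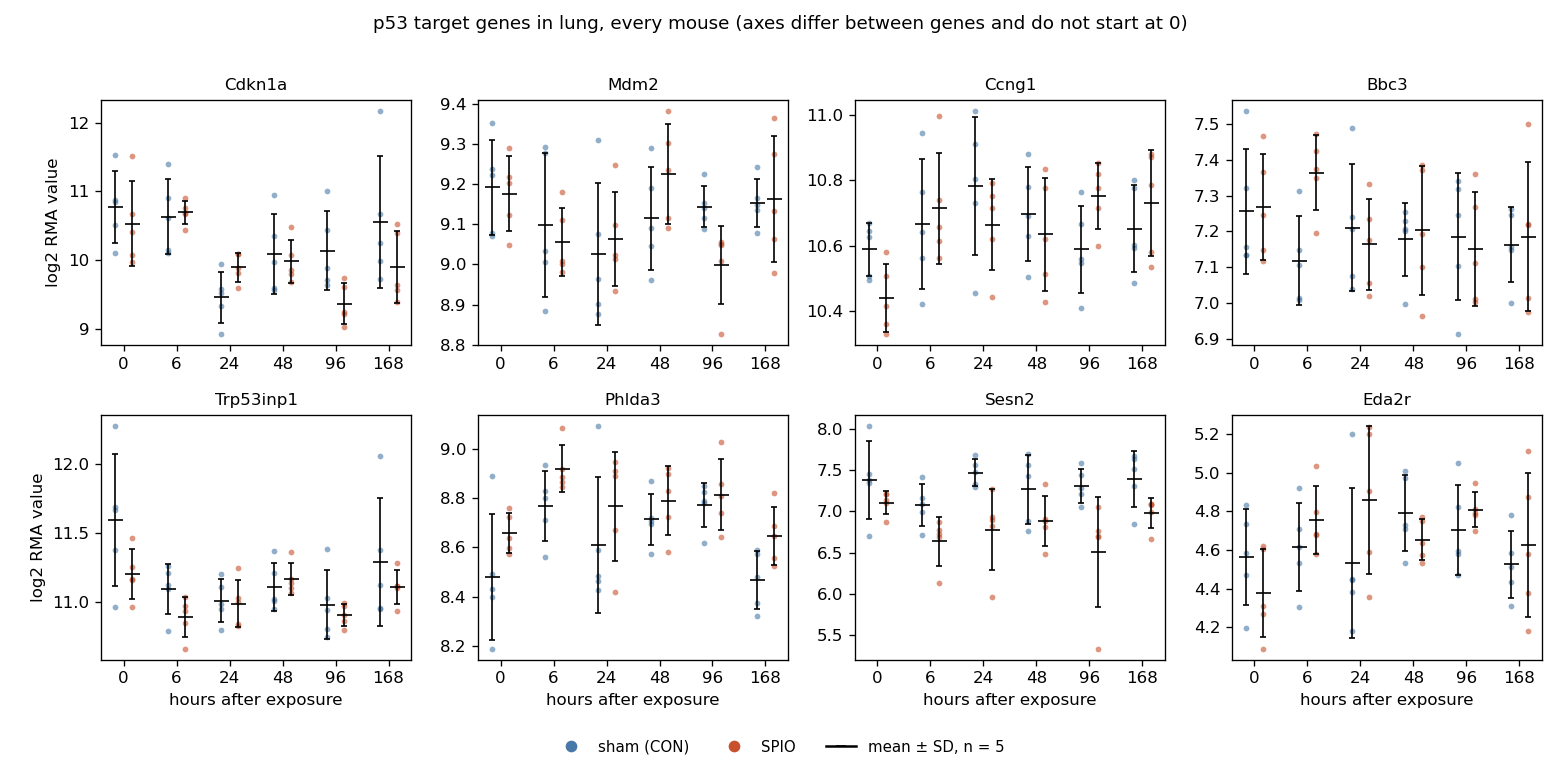
Log2 RMA values (vertical axes, different for each gene) of the 8 measured p53 targets in every mouse against hours after exposure, with sham in blue, SPIO in red, and bars for the mean ± SD of 5 mice. Sesn2 means of SPIO lungs lay below the sham means at all 6 times, and Cdkn1a had its lowest sham mean, 9.46, at 24 h.

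**Figure D2:**
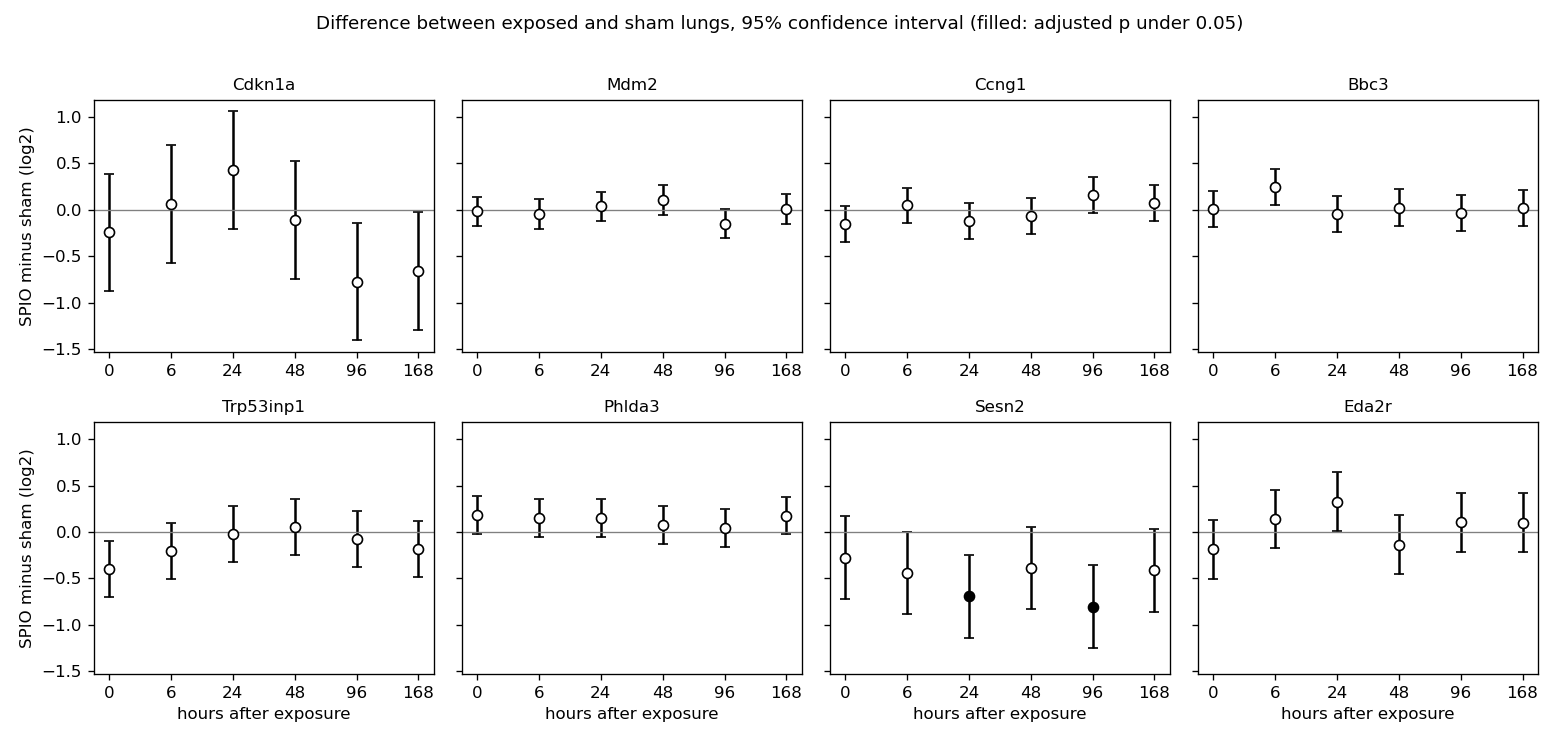
SPIO minus sham difference on the log2 scale (vertical axis, shared) with its 95% confidence interval for each gene against hours after exposure; filled points passed an adjusted p under 0.05. Filled points appear for Sesn2 at 24 h (-0.69) and 96 h (-0.81), and for no other gene.

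Cdkn1a encodes p21, the inhibitor of cyclin-dependent kinases through which p53 halts the cell cycle. At 96 h the 5 CON values were 9.71, 11.01, 10.44, 9.64 and 9.88, and the 5 SPIO values were 9.74, 9.03, 9.21, 9.60 and 9.25. Of the exposed mice, 4 lay below all sham mice and 1 lay above 2 of them, and the difference of -0.77 (SE 0.32) did not pass (adjusted p = 0.23). At 168 h the CON values were 12.16, 10.25, 9.98, 10.67 and 9.72, and the SPIO values 9.38, 9.63, 9.57, 10.52 and 10.40. The groups overlapped, with 1 sham mouse far above the rest, and the difference was -0.66 (SE 0.32, adjusted p = 0.28). At 24 h Cdkn1a had the opposite sign, 0.43 (SE 0.32, adjusted p = 0.35). The 95% confidence intervals over the 6 times reached from -1.41 to 1.07, the widest of the 8 genes.

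Ccng1, the gene of cyclin G1, encodes a protein that works with a phosphatase on Mdm2 and p53. Its SPIO minus CON differences lay between -0.15 and 0.16 (SE 0.10), with intervals from -0.34 to 0.36, and 0 of 6 times were called. On median-centred arrays Ccng1 was called lower at 24 h (-0.30, adjusted p = 0.041), where the main value was -0.12.

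Mdm2 encodes the ligase that closes the feedback loop on p53. Its main probe set stayed within -0.15 and 0.11 of the sham controls at each time (SE 0.08), and 0 of 6 times were called. At 96 h the CON values were 9.22, 9.15, 9.14, 9.11 and 9.09 and the SPIO values 9.01, 9.06, 9.05, 9.05 and 8.83. All exposed mice lay below all sham mice at that time, and 4.11% of all genes had groups that did not overlap. The difference of -0.15 did not pass (adjusted p = 0.39).

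Bbc3, the gene of the BH3-only protein PUMA that triggers apoptosis at mitochondria, had its largest difference at 6 h, with 7.15, 7.01, 7.01, 7.11 and 7.31 in CON and 7.20, 7.47, 7.43, 7.35 and 7.37 in SPIO lungs. Of the exposed mice, 4 lay above all sham mice, and the difference of 0.25 (SE 0.10) did not pass (adjusted p = 0.24). At the other 5 times the differences lay between -0.05 and 0.03.

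Trp53inp1 encodes a nuclear protein that promotes p53-dependent cell death and autophagy. With its main probe set the CON values at 0 h were 10.97, 12.28, 11.67, 11.69 and 11.38, and the SPIO values 11.16, 10.97, 11.25, 11.17 and 11.46. The sham value of 10.97 came from the array that stood apart, and 3 of the other 4 sham mice lay above all exposed mice. The difference was -0.39 (SE 0.15, adjusted p = 0.13) with that array and -0.55 (adjusted p = 0.020) without it. At the later times the differences lay between -0.21 and 0.06, with none called.

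Phlda3 encodes a pleckstrin homology protein that holds back Akt at the membrane. It was higher in SPIO lungs at all 6 times, by 0.04 to 0.18 (SE 0.10), and 0 of the 6 differences were called by limma (0 at an unadjusted p under 0.05, and 0 by the methods' test). Its sign at 24, 48 and 96 h turned on median-centred arrays (-0.03, -0.05 and -0.02). Without mouse 2 of the CON 24 h group, at 9.09 against 8.43 to 8.59 in the other 4, the 24 h difference was 0.28 and passed (adjusted p = 0.029).

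Eda2r, the receptor of ectodysplasin A2, is a member of the tumour necrosis factor receptor family. At 24 h its CON values were 4.45, 5.20, 4.18, 4.38 and 4.45, and its SPIO values 5.20, 5.24, 4.59, 4.91 and 4.36. The same sham mouse 2 was the high one here, and the groups overlapped. The difference was 0.33 (SE 0.16, adjusted p = 0.13) with it and 0.49 (adjusted p = 0.013) without it. At the other times the differences lay between -0.19 and 0.14. All Eda2r values were low, from 4.09 to 5.24, below the medians of the arrays (5.53 to 5.64). They also lay below the minimum of 6 in the filter on dim genes.

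Sesn2 encodes sestrin 2, a leucine sensor that restrains mTORC1 and is induced by p53, Nrf2 and Atf4. At 24 h the CON values of its main probe set were 7.29, 7.33, 7.48, 7.69 and 7.56, and the SPIO values 7.28, 6.94, 6.82, 6.90 and 5.96. All 5 exposed mice lay below all 5 sham mice, the nearest by a narrow margin, and 11.4% of all genes had groups that did not overlap at this time. The difference was -0.69 (SE 0.22, adjusted p = 0.018), a 1.62-fold lower level. At 96 h the CON values were 7.28, 7.58, 7.05, 7.21 and 7.44 and the SPIO values 7.05, 6.69, 5.33, 6.70 and 6.76. Here 4 of the 5 exposed mice lay below the sham range, with the third mouse far under the rest, and the difference was -0.81 (SE 0.22, adjusted p = 0.048), a 1.75-fold lower level. The differences at 0, 6, 48 and 168 h were -0.28, -0.44, -0.39 and -0.41, all in the same direction and none called.

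Both calls of Sesn2 were lost when single mice were left out, the one at 96 h in 8 of 10 such fits. In 7 of those 8 fits the difference stayed between -0.87 and -0.74. The 96 h call was also lost without the 2 arrays that stood apart (adjusted p = 0.053), neither of which is of that time, with the difference unchanged at -0.81, and with the mean of both Sesn2 probe sets (-0.40, adjusted p = 0.056). Without mouse 3 of the SPIO 96 h group, which had the highest end difference of all 60 arrays (1.16), the 96 h difference was -0.51 (adjusted p = 0.27). Without mouse 5 of the SPIO 24 h group, which had the next highest (0.81), the 24 h difference was -0.49 (adjusted p = 0.10). Deviations of the main Sesn2 probe set from its group means were correlated with those of the end difference over 60 arrays (Pearson r = -0.46, permutation p = 0.011, adjusted p = 0.033 over 15 probe sets; -0.31 without the 2 farthest arrays), whereas by rank the relation did not pass (rho = -0.20, adjusted p = 0.23). With the end difference as a covariate, chosen after the data were seen, Sesn2 was -0.58 at 24 h (adjusted p = 0.039 over all probe sets) and -0.38 at 96 h (adjusted p = 0.51). The 24 h difference thus passed in this fit and the 96 h difference did not. Of all probe sets, 16.5% were called at 24 h and 1.68% at 96 h in this fit, against 16.4% and 4.96% without the covariate.

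Averaged over the 6 times, a comparison added after the data were seen, Sesn2 was lower by -0.50 (SE 0.09, adjusted p = 2.2e-05) and Phlda3 higher by 0.13 (SE 0.04, adjusted p = 0.013), so that 2 of 8 genes were called beside 30.3% of all genes. With the end difference as a covariate the mean difference of Sesn2 was -0.26 and did not pass (adjusted p = 0.071). On median-centred arrays Phlda3 did not pass (0.06, adjusted p = 0.33). Trp53inp1, at -0.14 (SE 0.06, adjusted p = 0.084), passed on median-centred arrays (-0.21, adjusted p = 0.012), without both arrays that stood apart (-0.16, adjusted p = 0.028) and without the CON 0 h one alone (adjusted p = 0.024). The treatment by time test called 0 of the 8 genes (limma's moderated F, 0 at an unadjusted p under 0.05; adjusted p from 0.25 to 0.94), beside 8.77% of all genes, so a change of the exposure difference over time was not detectable for any of them.

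The further probe sets often differed from the main one in their response. Trp53inp1 probe set 1416927_at was lower in SPIO lungs at all 6 times, with differences from -1.29 to -0.55 on the log2 scale, and was called at 5 of them in a fit over all 45037 probe sets, whereas main probe set 1416926_at was called at none. At 6 h its CON values were 6.59, 6.72, 6.42, 6.44 and 6.83 and its SPIO values 5.04, 5.80, 5.51, 5.93 and 5.91. At 24 h the CON values were 6.03, 6.35, 6.61, 6.95 and 6.56 and the SPIO values 5.68, 5.57, 5.71, 5.59 and 5.60. The exposed mice lay below all sham mice at 6, 24, 96 and 168 h, as in 2.56%, 2.63%, 3.49% and 3.44% of all probe sets. The largest difference was that of 0 h, -1.29 (SE 0.26, adjusted p = 0.0024), and 48 h, with -0.55 (adjusted p = 0.19), was the time not called. In order of time, lower calls made up 1.27%, 1.65%, 5.45%, 1.94%, 4.00% and 2.94% of all probe sets.

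Mdm2 probe set 1427718_a_at was likewise lower at all 6 times, with differences from -0.72 to -0.08, and was called at 0, 96 and 168 h. At 96 h its CON values were 7.89, 7.77, 7.64, 7.89 and 7.89 and its SPIO values 7.28, 7.07, 6.82, 7.22 and 7.11. All exposed mice lay below all sham mice at 96 h, as in 3.49% of all probe sets. The difference was -0.72 (SE 0.12, adjusted p = 1e-04), where the main Mdm2 probe set gave -0.15. The third Mdm2 probe set, 1457929_at, had group means between 3.39 and 3.62, differences from -0.06 to 0.08, and no call.

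Sesn2 went the other way, with its main probe set lower and its further probe set close to the sham level. Probe set 1451599_at differed by -0.04 (SE 0.09) at 24 h and by 0.0064 at 96 h, and was called at 0 of 6 times. The further Cdkn1a probe set, 1421679_a_at, gave -1.05 at 96 h and -1.04 at 168 h (SE 0.34, adjusted p = 0.065 and 0.079), and it was called at no time. The further Ccng1 probe sets differed by -0.30 to 0.10 and were not called.

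**Figure D3:**
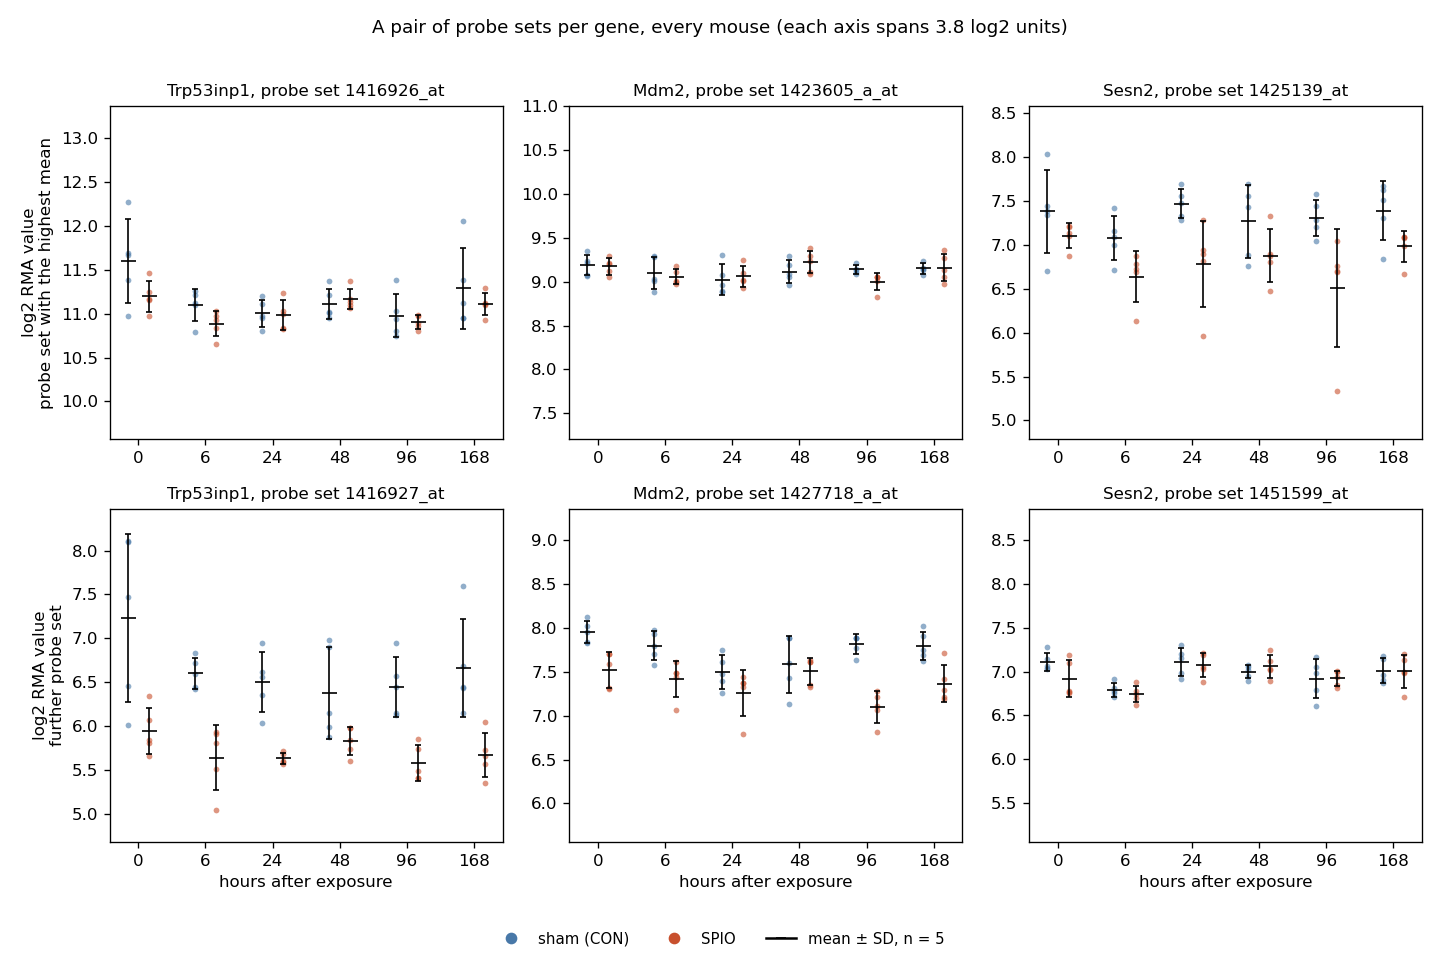
Log2 RMA values of a pair of probe sets for Trp53inp1, Mdm2 and Sesn2 in every mouse against hours after exposure, the main probe set above and a further one below, with sham in blue, SPIO in red and bars for the mean ± SD of 5 mice. Each vertical axis spans 3.8 log2 units. All exposed mice lay below all sham mice at 6, 24, 96 and 168 h in Trp53inp1 1416927_at and at 0 and 96 h in Mdm2 1427718_a_at. The main probe sets did so at 96 h for Mdm2, at 24 h for Sesn2 and at no time for Trp53inp1. Sesn2 1451599_at did so at no time. Of all probe sets, 2.56%, 2.63%, 3.49% and 3.44% did so at 6, 24, 96 and 168 h, and the share at 0 h was not determined.

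Whether the probe sets of a gene differed in their response was tested directly, on the value of each further probe set minus the main one within an array, in 1 limma fit over the 16752 further probe sets of all genes. This test was added after the data were seen. Of the members' 7 further probe sets, 2, 1, 2, 1, 6 and 3 were called in order of time, beside 2.29%, 7.00%, 22.3%, 7.25%, 11.6% and 9.43% of all further probe sets. Trp53inp1 1416927_at fell relative to its partner at all 6 times, by 0.61 to 0.89 (SE 0.20, adjusted p from 0.0014 to 0.0498). The call at 48 h was the weakest and was lost in 8 of 10 fits without 1 mouse of that time and without both arrays that stood apart (adjusted p = 0.054). The call at 0 h was lost without mouse 4 of CON 0 h (-0.70, adjusted p = 0.059), and that at 6 h without mouse 1 of SPIO 6 h (-0.66, adjusted p = 0.054). Mdm2 1427718_a_at fell relative to its partner by 0.19 to 0.57 and was called at 0, 96 and 168 h. Its 0 h call was lost in 7 of 10 fits without 1 mouse of that time, namely CON 1 to 4 and SPIO 2 to 4, and without both arrays that stood apart (-0.41, adjusted p = 0.060). Cdkn1a 1421679_a_at fell relative to its partner by 0.27 at 96 h (adjusted p = 0.044) and by 0.39 at 168 h (adjusted p = 0.0037), and both further Ccng1 probe sets were called at 96 h (-0.46 and -0.41). The 96 h call of Cdkn1a was lost without mouse 2, 4 or 5 of CON 96 h or mouse 1, 2, 3 or 4 of SPIO 96 h. That of Ccng1 1450016_at was lost without CON mouse 1, 2 or 4 or SPIO mouse 3 of that time. That of Ccng1 1450017_at was lost without CON mouse 1 or 4 or SPIO mouse 3 or 5. At 96 h the one not called was Mdm2 1457929_at. Of the 6 called, Sesn2 1451599_at alone was higher relative to its main probe set, by 0.81 (SE 0.23, adjusted p = 0.012). It was called at 24 h as well (0.66, adjusted p = 0.031), and not without mouse 4 or 5 of CON 24 h or mouse 4 or 5 of SPIO 24 h (0.42 without the last, adjusted p = 0.17).

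**Figure D4:**
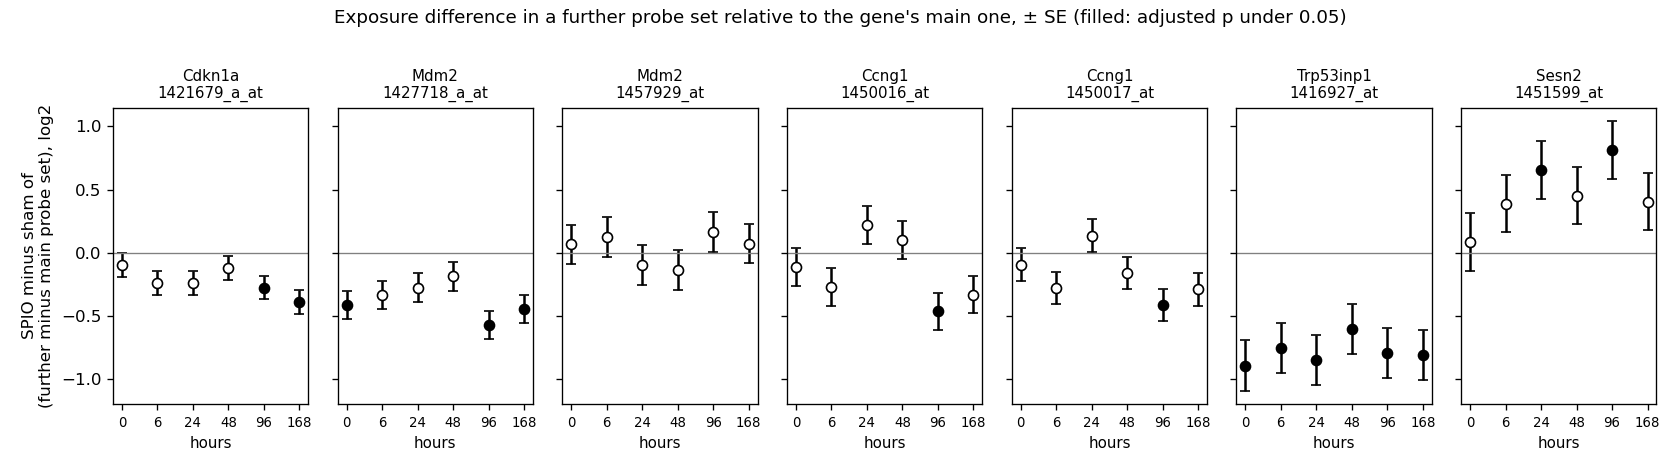
SPIO minus sham difference of a further probe set relative to the gene's main probe set within the same array (vertical axis, log2, ± SE) against hours after exposure for the 7 further probe sets; filled points passed an adjusted p under 0.05. Trp53inp1 1416927_at is filled at all 6 times, at 48 h by a narrow margin (adjusted p = 0.0498), and 6 of the 7 are filled at 96 h.

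These differences moved with the RNA end controls to unequal degrees. Without mouse 3 of the SPIO 96 h group, 2 of the 7 further probe sets were called at 96 h, Mdm2 1427718_a_at (-0.49) and Trp53inp1 1416927_at (-0.75). The same 2 were the ones called at 96 h with the end difference as a covariate, at -0.48 and -0.89. Without mouse 4 of the CON 96 h group 3 were called. In fits of single probe sets with that covariate, 2.82%, 0.77%, 16.5%, 6.97%, 1.68% and 1.82% of all probe sets were called in order of time. Without the covariate the shares were 2.63%, 2.27%, 16.4%, 7.35%, 4.96% and 3.51%. For Trp53inp1 1416927_at itself, deviations from the group means were not detectably correlated with the end difference over 60 arrays (r = 0.07, permutation p = 0.51; rho = 0.20, p = 0.13), and with the covariate its SPIO against CON differences ran from -1.30 to -0.59, with 3 times called in place of 5. Mdm2 1427718_a_at was correlated with the end difference (r = -0.44, permutation p = 0.0006, adjusted p = 0.003; rho = -0.40; -0.40 without the 2 farthest arrays), and kept 2 of its 3 calls with the covariate, -0.39 at 0 h and -0.49 at 96 h. Its main probe set was correlated as strongly (r = -0.42, adjusted p = 0.0094; rho = -0.54). Ccng1 1450017_at had the strongest correlation of the 15 probe sets (r = -0.60, permutation p = 4e-05, adjusted p = 0.0006; rho = -0.59), and neither Cdkn1a probe set had a detectable one (r = 0.03 and 0.04). Where in the transcripts the probe sets lie was not determined here.

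Levels also moved over time within an arm. Among CON groups, time was called by the moderated F test for Cdkn1a (adjusted p = 0.0060), Trp53inp1 (adjusted p = 0.0060) and Phlda3 (adjusted p = 0.021), 3 of 8 genes beside 41.0% of all genes. Among SPIO groups it was called for Cdkn1a alone (adjusted p = 0.027; 4 genes at an unadjusted p under 0.05), beside 7.13% of all genes. That call was lost without mouse 4 or 5 of SPIO 6 h and without mouse 2, 3 or 5 of SPIO 96 h. The hour of the day at which lungs were taken was not known here.

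Cdkn1a fell to its lowest sham level at 24 h. The CON values were 8.92, 9.58, 9.51, 9.34 and 9.95 at 24 h, against 10.10, 11.53, 10.87, 10.84 and 10.51 at 0 h and 9.60, 10.35, 9.57, 10.95 and 9.98 at 48 h. The 24 h sham values overlapped with those of 48 h and not with those of 0 h. The share of all genes whose 24 h and 0 h sham groups did not overlap was not determined. The 24 h group was lower than the mean of the other 5 CON groups by 0.98 (SE 0.24, adjusted p = 0.0026, 28.7% of all genes called in that comparison), and it passed in 30 of 30 fits that each left out 1 sham mouse. The further Cdkn1a probe set gave -0.999 (SE 0.27, adjusted p = 0.0065). Among SPIO groups the Cdkn1a mean was lowest at 96 h, 9.36 ± 0.30 (SD, n = 5), and highest at 6 h, 10.69 ± 0.17, and neither group was called against the others of its arm (adjusted p = 0.10 and 0.063).

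Trp53inp1 was highest in sham lungs at 0 h, at 11.60 ± 0.48, which was 0.50 (SE 0.12, adjusted p = 0.0032) over the mean of the other 5 CON groups, beside 10% of all genes called. It passed in 29 of 30 fits that left out 1 sham mouse and not without mouse 2 of that group (0.33, adjusted p = 0.075). Ccng1 was lowest in SPIO lungs at 0 h, at 10.44 ± 0.10, below the mean of the other 5 SPIO groups by 0.26 (SE 0.07, adjusted p = 0.038, 3.00% of all genes called), and it passed in 25 of 30 such fits. It did not pass without mouse 1, 2, 3 or 5 of its own group (-0.23 without mouse 1, adjusted p = 0.17) or without mouse 1 of SPIO 48 h. These were the called values among the 48 member and time pairs of each arm, 2 in CON (8 at an unadjusted p under 0.05) and 1 in SPIO (11). The groups without a called member had 7.67%, 5.36%, 1.07% and 5.28% of all genes called at 6, 48, 96 and 168 h in CON, and 4.39%, 0.126%, 0.0934%, 0.566% and 0.176% from 6 to 168 h in SPIO.

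Ordered over the 12 groups, the group means of each gene mostly lay closer to their neighbours than the spread within groups. Cdkn1a ran from 9.36 in SPIO 96 h to 10.77 in CON 0 h, a span of 1.41 with a pooled SD of 0.52, and Sesn2 from 6.51 in SPIO 96 h to 7.47 in CON 24 h, a span of 0.96 with a pooled SD of 0.36. The spans of Mdm2 (0.23), Bbc3 (0.25), Ccng1 (0.34), Phlda3 (0.45), Eda2r (0.48) and Trp53inp1 (0.71) were smaller. For 7 of the 8 genes no gap between neighbours in the order exceeded the pooled SD within groups. The exception was the step of Trp53inp1 to its highest group, CON 0 h, with a gap of 0.30 and a pooled SD of 0.24.

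Within groups, some of the targets varied together from mouse to mouse. Of 28 pairs of members, tested on deviations from the group means over 60 arrays with 100000 permutations within groups, 4 passed an adjusted p under 0.05 for Pearson's r. Cdkn1a and Trp53inp1 had the closest relation (r = 0.74, p = 1e-05, adjusted p = 0.00028; rho = 0.64; r = 0.66 without the 2 farthest arrays), and 1e-05 is the smallest p these permutations can give. Mdm2 and Trp53inp1 went together more weakly (r = 0.36, adjusted p = 0.032; rho = 0.38; 0.31 without the 2 farthest). Trp53inp1 and Phlda3 went opposite ways (r = -0.42, adjusted p = 0.042; rho = -0.48; -0.57 without the 2 farthest), as did Ccng1 and Sesn2 (r = -0.34, adjusted p = 0.043; rho = -0.34, adjusted p = 0.056; -0.34 without the 2 farthest). Over all 28 pairs the correlations were as often above as below 0, with 15 positive.

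Across all 60 arrays, the genes whose pattern was most like that of Cdkn1a, among 10905 genes with a mean of at least 6, were Kcnk1 (r = 0.80), Bcl2l1 (0.78), Nfil3 (0.77), Pex11a (0.77) and Fam107a (0.77). Those most like the mean of the 8 members, each centred on its own mean, were Ccdc71l (r = 0.87), Fst (0.78), Lpin1 (0.75), Pex11a (0.75) and Lpar1 (0.73). The arrays share groups and time points, so these values describe likeness only.

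The surrounding pathway was read from lists chosen by name. At 24 h the lists were compared with a sham group that itself differed from the other 5 CON groups in 28.7% of all genes. The SPIO 24 h group differed from the other 5 SPIO groups in 0.126%. Of 25 further p53 targets of arrest and repair, 0 were called at 0, 6, 96 and 168 h by limma, beside 3.67%, 1.17%, 1.41% and 2.19% of all genes. At an unadjusted p under 0.05 they numbered 6, 2, 2 and 6, beside 17.7%, 11.9%, 14.3% and 16.8% of all genes. At 24 h 4 were higher and none lower, beside 20.3% of all genes called higher. Among the 4 were Ptp4a3 (0.44), Plk3 (0.30) and Ddb2 (0.34), a damage-recognition factor. On median-centred arrays 0 were higher and 2 lower, beside 4.55% and 11.7% of all genes. At 48 h Ddb2 rose by 0.53 (SE 0.12, adjusted p = 0.0021) and Ptp4a3 by 0.34, and Rps27l, a ribosomal protein-like target, fell by 0.21, beside 10.7% of all genes called higher and 1.89% lower. On median-centred arrays Ddb2 (0.40, adjusted p = 0.016) and Rps27l (-0.34) were still called.

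Of 19 further targets of apoptosis and autophagy, 3 were higher at 0 h, Dram1 (0.24), Casp8 (0.38) and Trp53i11 (0.38), beside 2.56% of all genes called higher and 1.11% lower. On median-centred arrays 0 were called at 0 h, beside 1.94% of all genes higher and 1.85% lower. At 24 h 8 were higher and 1 lower, beside 20.3% and 3.66% of all genes. On median-centred arrays 2 were higher and 1 lower, beside 4.55% and 11.7% of all genes. The 2 higher were Trp53i13 (0.58, or 0.40 centred) and Bid (0.69, or 0.51 centred), the protein that links death receptors to mitochondria. Steap3, a ferrireductase that handles endosomal iron, fell by 0.74 at 6 h (adjusted p = 0.026) and fell by 0.84 at 24 h (adjusted p = 0.00097), and was called on median-centred arrays too (-0.78 and -1.02). Of all genes at 6 h, 0.759% were called higher and 0.407% lower. At 48 h 5 were higher and 1 lower, among them Trp53inp2 (0.40), Trp53i13 (0.33) and Apaf1 (0.27), beside 10.7% and 1.89% of all genes. Centred the counts were 1 and 3, beside 2.95% and 5.87% of all genes. At 96 and 168 h 0 of the 19 were called, beside 1.41% and 2.19% of all genes. At an unadjusted p under 0.05 they numbered 2 and 0, beside 14.3% and 16.8% of all genes.

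Of 18 regulators of p53, 5 were higher and 2 lower at 24 h, beside 20.3% and 3.66% of all genes. On median-centred arrays 0 were higher and 4 lower, beside 4.55% and 11.7% of all genes. Among them the deubiquitinase Usp7 (0.29) and the acetyltransferase Kat5 (0.29) were higher at 24 h and lost that call when centred, and the coactivator Ep300 fell by 0.40 (adjusted p = 0.0023) and had a centred difference of -0.58. Kat5 was also higher at 0 h (0.26, adjusted p = 0.025) and at 48 h (0.31, adjusted p = 0.0025), on median-centred arrays too (0.23 and 0.17), and Ep300 was also lower at 0 h (-0.43). The ubiquitin ligase Cop1 was lower at 96 h (-0.27, adjusted p = 0.028) and at 168 h (-0.28, adjusted p = 0.020). The coactivator Crebbp was lower at 24 h (-0.76, adjusted p = 0.0038, or -0.94 centred) and at 168 h (-0.78, adjusted p = 0.022). Of all genes, 0.885% were called lower at 96 h (0.522% higher) and 1.62% lower at 168 h (0.566% higher). Of 24 genes of damage sensing and repair, 7 were higher at 24 h, led by Neil1 (0.52), Rad9a (0.36) and Xrcc1 (0.36), and 4 at 48 h, beside 20.3% and 10.7% of all genes called higher. On median-centred arrays 1 was higher and 1 lower at 24 h, beside 4.55% and 11.7% of all genes. At 48 h 1 was higher, beside 2.95%. Apex1 was higher at 0 h (0.38), 24 h (0.28), 96 h (0.39) and 168 h (0.36), and when centred at 0 and 168 h. Rad9a was also higher at 6 h (0.29, not called when centred), and Nbn was lower at 168 h (-0.31, centred too). Calls higher made up 2.56%, 0.759%, 0.522% and 0.566% of all genes at 0, 6, 96 and 168 h, and calls lower 1.62% at 168 h. In the integrated stress response, which also acts on Sesn2 through Atf4, Atf4 was lower at 0 h (-0.31, adjusted p = 0.034) together with the enzyme gene Cth (-0.77), while Chac1 was higher (0.54), 3 of 19 genes called beside 3.67% of all genes. Ddit3 (-0.39) and Asns (-0.43) were lower at 48 h, beside 1.89% of all genes, and Cth at 168 h (-0.81). On median-centred arrays 4 were lower at 24 h and 5 at 48 h, beside 11.7% and 5.87% of all genes.

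Of 27 genes of the cell cycle, which Cdkn1a halts, 16 were higher in SPIO lungs at 24 h and 15 at 48 h, among them Rrm2 (1.28 and 1.07). Calls higher made up 20.3% and 10.7% of all genes at these times. On median-centred arrays 11 and 7 of the list were still called, beside 4.55% and 2.95% of all genes. The mean of the list at 24 h was 5.69 in CON and 6.23 in SPIO lungs. Its CON means at the other times were 5.90 to 6.47. Beside 20.3% of all genes called higher at 24 h, markers called higher were 3 of 7 of monocytes and neutrophils, 3 of 7 of B and T cells, 3 of 10 of lung epithelium and endothelium (Ager, Pecam1 and Tek) and 1 of 6 of macrophages. At 48 h, beside 10.7%, 1 of 6 macrophage markers was called higher, Marco (0.77, adjusted p = 0.039). Of monocytes and neutrophils 0 of 7 were called at 48 h, of B and T cells 0 of 7, and of lung epithelium and endothelium 0 of 10. At 0 h, beside 2.56%, 4 of 7 B and T cell markers were higher, with Bank1 by 2.15, and 1 of 7 of monocytes and neutrophils. The part of cell makeup in these list counts was not tested.

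**Figure D5:**
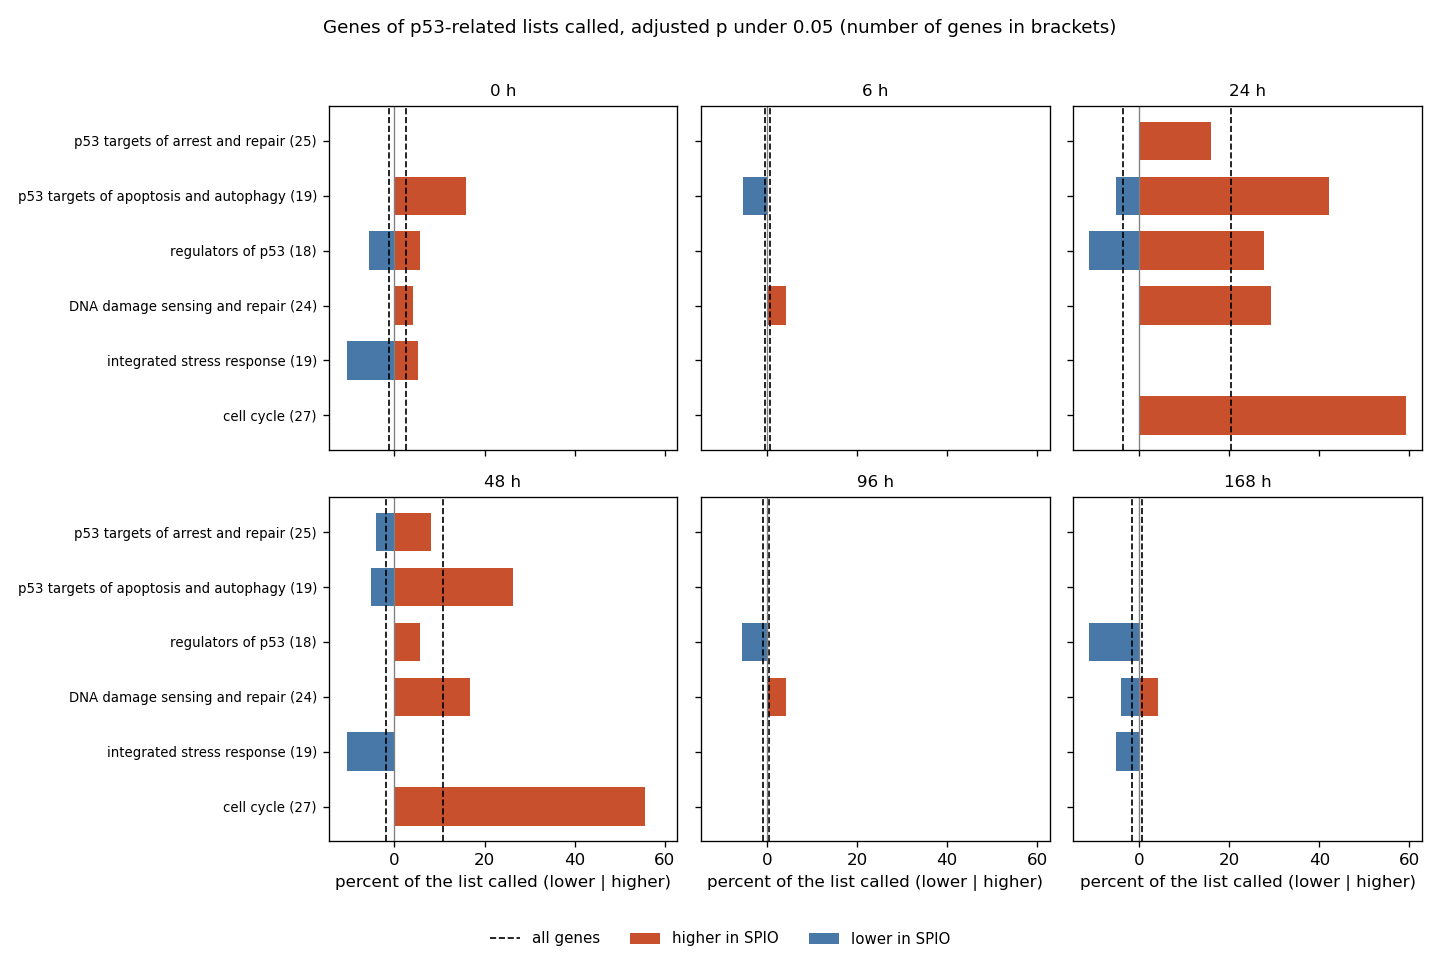
Percent of the genes of each list called higher (red, to the right) or lower (blue, to the left) in SPIO lungs at each time, with the number of genes in brackets; dashed lines mark the percent of all 18193 genes called in that direction. At 24 h, 59.3% of the cell cycle list was called higher against 20.3% of all genes, and 16.0% of the arrest and repair targets.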

How the data were processed

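The authors hybridized lung RNA of 60 mice to Affymetrix whole-genome mouse arrays with 3′ probe sets and deposited log2 values made by RMA; no RMA version was stated. Array values have no read depth, and 5 mice per group limit the precision. Of 45101 probe sets, 64 controls were left out of the tests. 34945 had 1 gene symbol, 932 several and 9160 none. Groups were taken from the labels. Each gene's probe set with the highest mean was tested in R 4.3.3 with limma 3.58.1, as 1 model over 12 groups, which left 48 residual degrees of freedom, and p-values were adjusted by Benjamini-Hochberg at 0.05; the script was tested on simulated data. All p-values without another name come from it. Alternatives were other probe sets, filters, scalings, weights, a replicate block, the methods' test and left-out mice. Figures were drawn with Python and matplotlib. The members, lists and the rule for named genes (all members, up to 3 genes per list and comparison by smallest p, and 5 genes by likeness) were chosen with earlier results of these data known.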

Additional observations from a re-analysis of the deposited data

Results flagged for a closer look

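Of 96 sets of 5 mice (8 genes in 12 groups), 7 held a mouse far from the other 4 by Dixon's test at the 95% level, which flags about 1 set in 20 by chance. Sesn2 had 3 of them, all low and all in SPIO groups: mouse 1 at 6 h with 6.13 (others 6.69 to 6.87), mouse 3 at 96 h with 5.33 (others 6.69 to 7.05) and mouse 4 at 168 h with 6.67 (others 6.99 to 7.09). The mean end difference of the control transcripts was 1.16 in that 96 h mouse and 0.78 in that 168 h mouse, among the 5 highest of the 60 arrays, and 0.59 in that 6 h mouse, the lowest of its group. Mouse 2 of CON 24 h was high in Phlda3 with 9.09 (others 8.43 to 8.59) and in Eda2r with 5.20 (others 4.18 to 4.45). Mdm2 was low in mouse 5 of SPIO 96 h with 8.83 (others 9.01 to 9.06). Bbc3 was low in mouse 5 of CON 48 h with 7.00 (others 7.20 to 7.25).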

How the results depend on the processing

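Counts of called members changed as follows, and the cause was not tested unless the setting names it. Where no share of all genes is given above for a setting, its count describes the setting only. In the main fit 30.3% of all genes were called in the mean over times. Averaging the probe sets of each gene, 1 member was called at 0 h (main 0), 5 in the mean over times (main 2) and 0 SPIO groups against their arm (main 1); at 96 h the count stayed at 1, with Sesn2 lost (-0.40, adjusted p = 0.056) and Mdm2 gained (-0.28, adjusted p = 0.0058). The count of SPIO groups was also 0 with all probe sets, on median-centred arrays and with the end difference as a covariate, 2 with the filter on dim genes and 4 with array weights. CON groups against their arm gave 4 (main 2) after quantile normalization again, on median-centred arrays and without both arrays that stand apart, and 6 with array weights. At 24 h 2 were called (main 1) on median-centred arrays and with array weights, and 0 by the methods' test. At 0 h 1 was called with array weights and without both arrays that stand apart. At 96 h 0 were called (main 1) with the time fitted alone, without both arrays and with the covariate, which left 1 call in the mean over times. Other probe sets often turned the sign of the difference. Of 6 times each, it turned at 1 for Trp53inp1 1416927_at and at 1 for Cdkn1a 1421679_a_at. For Mdm2 it turned at 3 with 1427718_a_at and at 5 with 1457929_at. For Ccng1 it turned at 5 with 1450016_at and at 4 with 1450017_at, and for Sesn2 1451599_at at 2. Among these were Mdm2 1427718_a_at at 168 h (-0.44) and Sesn2 at 96 h (0.0064). Leaving out 1 mouse gave 0 to 1 calls at 0 h, 1 to 3 at 24 h, 0 to 1 at 96 h (lost in 8 of 10), 0 to 1 for time in SPIO, 1 to 4 and 0 to 2 for CON and SPIO groups against their arm, and for further probe sets against the main one 0 to 2 at 0 h and at 6 h, 1 to 3 at 24 h, 0 to 1 at 48 h and 2 to 6 at 96 h. Those further probe sets gave 0 at 48 h (main 1) with trend and robust moderation, with array weights and without both arrays, 1 at 0 h (main 2) without both arrays, 2 at 96 h (main 6) with the covariate, and 3 at 24 h (main 2, Cdkn1a gained) with array weights and after quantile normalization again. Replicate numbers did not pair the mice (30 same-number correlations from -0.51 to 0.47); with the replicate block 2 further probe sets were called at 6 h (main 1), and the counts of members at each time were unchanged. The settings without both arrays and with the covariate, and the results for the mean over times and for further probe sets, were added after the data were seen. The settings without 1 mouse were applied to the exposure comparison at the time of that mouse and to the tests over all groups.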
